A study of Homo sapiens with 8 samples.

Results

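The genes described here encode bZIP transcription factors that act beside ATF4 or feed back on it: ATF3, ATF4 itself, ATF5, CEBPB, CEBPG and DDIT3. They were examined through the peaks of an ATF4 chromatin immunoprecipitation followed by sequencing (ChIP-seq) that lay within 5 kb of 7 transcription start sites, 2 of ATF3 and 1 of each other gene, in hg19 coordinates. These were 78 of 312662 listed peaks, which merged into 10 of 132657 regions over both cell lines.

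The libraries came from human acute lymphoblastic leukaemia (ALL) cell lines. Nalm6 is a B-cell precursor line, and SUPB15 is a B-cell precursor line that carries the BCR-ABL1 fusion. Each line was studied with L-asparaginase, at 1 IU/ml for 2 h, and without treatment, with 2 libraries and thus 2 peak lists in each of the 4 groups. All 8 libraries used the same ATF4 antibody, at 5 ug per precipitation, and unmodified cells, as far as the labels say. For Nalm6 the design text speaks of independent experiments, and a further experiment per condition was not analysed here. Whether the SUPB15 libraries came from separate cultures is not stated, so that their spread, and the p-values that rest on it, may be technical only. Peak lists hold no expression values, so the labelled cell type was not checked against marker genes.

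L-asparaginase, a leukaemia drug, breaks down asparagine in the medium. When amino acids run short, the kinase GCN2 phosphorylates eIF2alpha, most translation slows and ATF4 mRNA is translated more. ATF4 cannot bind DNA well alone. It pairs with other bZIP proteins, C/EBP family members among them, and the pair binds C/EBP-ATF composite elements, which join a C/EBP site to an ATF site. ATF4 also activates genes of its own partners and of factors that later limit the response.

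RefSeq promoter windows (GRCh38.p14, 250 bases before to 50 after each listed start) were found for 6 of 6 genes, as 13 windows. Of these, 3 are shown because they hold the letters of a composite element or, for the ATF4 gene, the core of a cAMP response element, the other class of site that ATF and CREB proteins bind. Capitals mark the match. The CEBPG window lies at chr19:33373863-33374162, the ATF3 window at chr1:212565157-212565456 and the ATF4 window at chr22:39520309-39520608, all on the plus strand.
CEBPG: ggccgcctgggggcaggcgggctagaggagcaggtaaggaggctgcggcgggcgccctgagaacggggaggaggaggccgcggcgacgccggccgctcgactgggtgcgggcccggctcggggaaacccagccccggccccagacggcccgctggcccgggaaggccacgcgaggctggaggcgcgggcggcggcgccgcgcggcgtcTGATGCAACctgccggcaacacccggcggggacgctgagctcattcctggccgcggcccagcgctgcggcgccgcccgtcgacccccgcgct
ATF3: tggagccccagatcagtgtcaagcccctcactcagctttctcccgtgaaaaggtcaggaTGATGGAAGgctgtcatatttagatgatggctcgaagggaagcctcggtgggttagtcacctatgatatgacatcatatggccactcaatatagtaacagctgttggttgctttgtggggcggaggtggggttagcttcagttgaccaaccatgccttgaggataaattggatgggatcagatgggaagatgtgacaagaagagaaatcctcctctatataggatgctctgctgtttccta
ATF4: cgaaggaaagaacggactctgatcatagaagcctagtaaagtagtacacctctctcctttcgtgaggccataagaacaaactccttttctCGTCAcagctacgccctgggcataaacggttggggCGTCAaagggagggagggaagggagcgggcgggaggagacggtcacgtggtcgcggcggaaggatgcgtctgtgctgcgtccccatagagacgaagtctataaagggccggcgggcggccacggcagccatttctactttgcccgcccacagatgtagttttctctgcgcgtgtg

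The composite element was searched as TGATGNAAN on both strands. Of the 13 windows, 2 held it, compared with 3.61% of all 35116 windows in the table. CEBPG held TGATGCAAC at -42 to -34 from its second listed start, which is +362 to +370 from its first. ATF3 held TGATGGAAG at -191 to -183 from its first listed start. The exact form TGATGCAAT, found in 0.236% of all windows, was in none of the 13. The full cAMP response element TGACGTCA, found in 1.85% of all windows, was in none of them either. Its core TGACG, in 24.6% of all windows, lay on the opposite strand at -160 to -156 and at -125 to -121 of the ATF4 gene, and also in 1 window each of ATF5 and CEBPB. The full element contains the core, so these searches overlap. A match is a description of the letters and not a binding site. Starts were not matched between hg19 and GRCh38, and the listed ATF3 starts lie 49611 bp apart against 43294 bp between those used for the peaks.

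For each peak the authors' peak caller, MACS2, gave a fold enrichment over local background at the summit, a -log10 p and a -log10 q. These are the authors' values and serve here to describe and rank peaks within a list. The lists held 43376 and 48984 peaks for Nalm6 with asparaginase, 34825 and 36801 for untreated Nalm6, 88302 and 41213 for SUPB15 with asparaginase and 9575 and 9586 for untreated SUPB15. Ranks from lists of such different lengths show no change. The fold and p of each peak were solved together for the number of fragments piled up at the summit. That pileup, plus 1, was divided by the genome background to give a relative pileup. The genome background was the lowest local background of a list and served as a measure of its depth. That background stood at 2.21 and 2.33 for Nalm6 with asparaginase and at 2.97 and 2.79 for Nalm6 untreated. For SUPB15 it stood at 4.19 and 3.93 with asparaginase and at 4.08 and 3.90 untreated. No list had a summit pileup above 400, and 4, 9 and 4 peaks of 3 asparaginase lists stood exactly there. A limit of this kind compresses differences between strong peaks. Its origin was not tested.

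**Figure D1:**
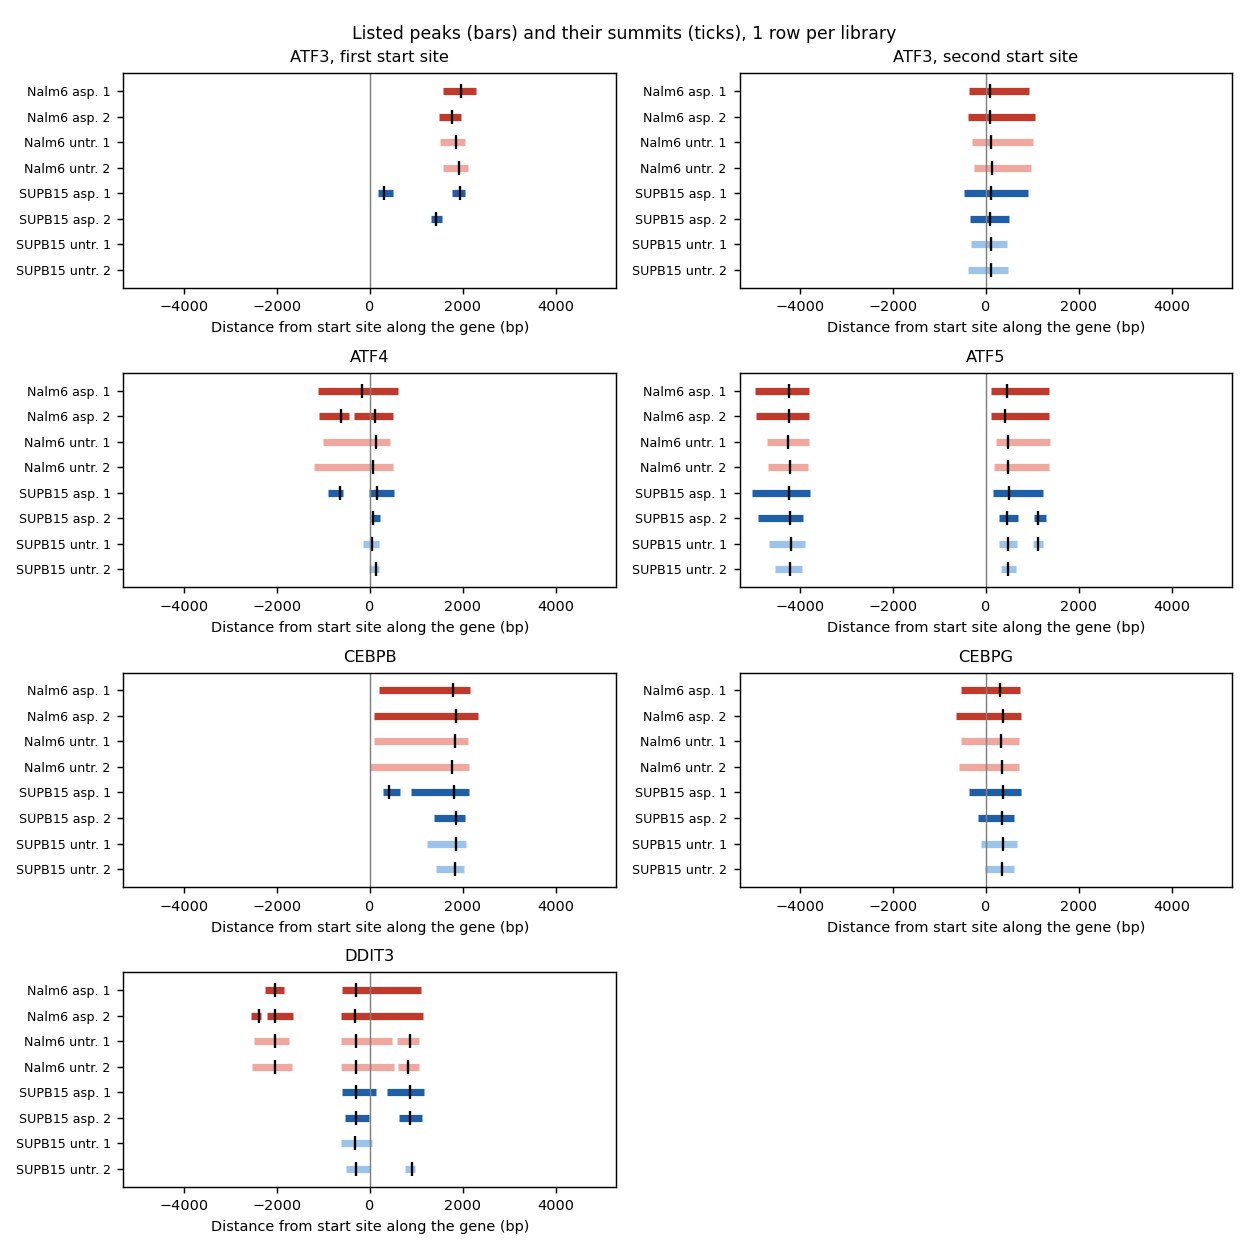
Peaks (bars) and summits (ticks) around each of the 7 start sites, 1 row per library, against the distance from the start in bp along the gene, with negative values upstream. Summits of the strong peaks differ by at most 79 bp between the 8 lists, and those of DDIT3 lie between -309 and -303 bp, while those of the weak peaks near the first ATF3 start are scattered from +310 to +1971 bp.

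Peaks at these genes were present in nearly every list. All 7 start sites had a peak within 5 kb in both Nalm6 asparaginase lists, both untreated Nalm6 lists and both SUPB15 asparaginase lists. In each untreated SUPB15 list 6 of 7 had one, and the first ATF3 start was the one without. The mean difference, asparaginase minus untreated, was 0.5 start sites (exact two-sided permutation test with labels permuted within each line, p = 0.333). The smallest p that 36 arrangements allow is 0.0556. With every Nalm6 list at 7, however, no arrangement of these counts could give a p below 0.333. The test therefore cannot decide whether the lists differ with treatment. In equally long lists of the 9575 strongest peaks the difference was -0.75 (exact p = 0.167), so its sign changed with the length of the lists.

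Merged within a line, the peaks made 9 regions in Nalm6 and 13 in SUPB15. In Nalm6, 9 of 9 had a peak in all 4 lists, as did 44.1% of all Nalm6 regions. In SUPB15 it was 7 of 13, beside 4.63% of all regions, and each of the other 6 was in some of the lists without following treatment exactly. Over both lines 7 of 10 regions had a peak in all 8 lists, against 2.87% of all regions. With regions built from summits within 200 bp of each other the counts were 8 of 13 in Nalm6, 7 of 14 in SUPB15 and 6 of 17 over both lines. With only peaks of -log10 q of at least 10 they were 8 of 9, 6 of 8 and 6 of 9, and the ATF4 start was then listed in 5 of 8 libraries. Without these limits the 7 regions in all 8 lists were the DDIT3 upstream site, the CEBPG start, the site within the CEBPB region, the second ATF3 start, the ATF4 start and 2 sites of ATF5.

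DDIT3 encodes CHOP, a C/EBP-related protein that pairs with C/EBP factors and ATF4 and is known for its part in cell death under prolonged stress. A composite element upstream of the human gene is known to respond to amino acid shortage. Its main peak had its summit at -309 to -303 bp, upstream of the start, in all 8 lists (chr12:57914603-57914609). The summits thus spanned 6 bp, and 0.813% of the 3812 regions listed in all 8 libraries had a span no larger. The median span of those regions was 160 bp. These summits lie outside the 250 bases of the promoter windows, so no sequence is shown for them.

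At this DDIT3 site the summit pileup was 366 and 377 in Nalm6 with asparaginase, against 346 and 368 in untreated Nalm6. In SUPB15 it was 361 and 325 with asparaginase, against 321 and 273 without. The groups of Nalm6 overlapped in pileup and those of SUPB15 did not, and all 8 libraries stood between 273 and 377. Relative pileups were 166 and 162 in Nalm6 with asparaginase, against 117 and 132 without, and 86.4 and 83.0 in SUPB15 with asparaginase, against 78.9 and 70.3 without. Ranked by mean relative pileup over the 8 libraries, this was region 8 of 3812. In untreated SUPB15 the peak ranked 10 and 12 in its lists by p, with -log10 q of 227 and 196.

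The authors' fold enrichment at the DDIT3 site ran the other way. It was 7.66 and 6.75 in Nalm6 with asparaginase, against 8.99 and 8.81 in untreated Nalm6, and 8.44 and 11.2 in SUPB15 with asparaginase, against 12.7 and 13.0 in untreated SUPB15. In both lines each asparaginase value was below each untreated value. The local background that divides it averaged, in Nalm6, 51.0 ± 5.73 with asparaginase and 39.2 ± 2.33 without. In SUPB15 it averaged 35.1 ± 9.66 with asparaginase and 22.2 ± 3.07 without (SD, n = 2 in each group). The labels do not state whether peaks were called against a control library. Without one, the local background would count fragments of the same library around the peak. The source of the higher local background was not tested.

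A further DDIT3 peak lay 829 to 911 bp inside the gene. In SUPB15 its pileup was 265 and 196 with asparaginase, while untreated replicate 1 listed no peak there and untreated replicate 2 had a pileup of 53. As relative pileup, both asparaginase libraries, at 63.5 and 50.2, stood above the 13.8 of the single untreated one. Since an untreated list lacks it, the site did not enter the test. In untreated Nalm6 it had pileups of 128 and 153. In Nalm6 with asparaginase a single wide peak, 1715 and 1765 bp, ran from the upstream site across it and gave it no summit of its own. Absence of a summit is therefore not absence of fragments.

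A weaker DDIT3 peak, upstream at -2048 to -2029 bp, was listed in Nalm6 and not in SUPB15. Its pileups of 112 and 145 with asparaginase stood above 92 and 104 without. Its fold enrichment was only 2.41 to 2.66, on a high local background. In Nalm6 asparaginase replicate 2 another weak peak followed at -2377, with a pileup of 96. In RefSeq the genes MARS1, MBD6 and LOC128125814 and the microRNA genes MIR616 and MIR6758 lie within 5 kb of DDIT3, so that nearness alone does not tie a peak to DDIT3.

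CEBPG encodes a short C/EBP protein without a strong activation domain that forms stable pairs with ATF4. Its peak covered the start, with summits from +297 to +376 bp (chr19:33864906-33864985 over the 8 lists). The composite-element letters shown above lie +362 to +370 from the gene's first listed start, in the other build. Summit pileups were 347 and 362 in Nalm6 with asparaginase, against 233 and 250 in untreated Nalm6. They were 354 and 295 in SUPB15 with asparaginase, against 197 and 174 in untreated SUPB15. In each line both asparaginase libraries were above both untreated ones. CEBPG had the highest fold enrichments among the sites of these genes listed in all 8 libraries, 12.7 to 16.2. They averaged 13.2 ± 0.734 with asparaginase and 13.7 ± 0.195 without in Nalm6, and 14.9 ± 1.76 with and 13.5 ± 0.0869 without in SUPB15 (SD, n = 2 each), and in both lines the difference was smaller than the larger SD. Its ranks by p lay between 48 and 107 in every list.

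CEBPB encodes C/EBP-beta, made as activating and inhibiting isoforms, whose composite element is known to lie downstream of the coding sequence. The summits fell 1777 to 1851 bp past the start (chr20:48808897-48808971), toward the end of a gene that is 2108 bp long in RefSeq. Pileups were 361 and 370 in Nalm6 with asparaginase, against 235 and 246 in untreated Nalm6. In SUPB15 they were 363 and 288 with asparaginase, against 182 and 158 in untreated cells. As at CEBPG, no untreated library of a line reached an asparaginase library of that line. In Nalm6 the peak was 2108 ± 199 bp wide with asparaginase and 2073 ± 74.2 bp without (SD, n = 2 each) and so reached back to near the start. At the start itself a separate peak was listed only in SUPB15 asparaginase replicate 1, at +419 bp, with a pileup of 70 and a fold of 1.91.

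ATF3 encodes a factor that represses many of its targets, among them genes that ATF4 activates. Its 2 starts differed greatly. At the second start, summits lay at +86 to +131 bp (chr1:212782056-212782101), with pileups of 379 and 383 in Nalm6 with asparaginase against 302 and 308 in untreated Nalm6. In SUPB15 they were 382 and 343 with asparaginase, against 191 and 161 in untreated cells. The asparaginase values stood at up to 95.8% of the limit of 400. In relative pileup the ratio of group means in SUPB15 was 2.02, and in Nalm6 it was 1.58. By p this peak ranked 26 and 69 in Nalm6 with asparaginase and 38 and 50 in untreated Nalm6. In SUPB15 it ranked 133 and 56 with asparaginase and 116 and 103 without.

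At the first ATF3 start all peaks were weak and none lay over the start. In Nalm6 they had summits at +1777 to +1971 bp and pileups of 25 and 29 with asparaginase, against 29 and 25 without, the same values in both groups. As relative pileup they were 11.8 and 12.9 with asparaginase, against 10.1 and 9.32 without. SUPB15 with asparaginase listed peaks at +310 and +1936 bp in replicate 1, with pileups of 29 and 25, and at +1427 bp in replicate 2, with a pileup of 24. Untreated SUPB15 listed none. Peaks this weak lie near the caller's limit, so that a missing one is not a level of 0. The ATF3 window with composite-element letters shown above belongs to the first listed start and not to the start with the strong peak.

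ATF5 encodes a factor that, like ATF4, is translated more under stress and activates mitochondrial stress genes. It had 2 sites in all 8 lists. The upstream site, with summits at -4256 to -4203 bp (chr19:50427703-50427756), was region 12 of 3812 by mean relative pileup, against region 332 for the site at +416 to +486 bp. At the upstream site pileups were 367 and 385 in Nalm6 with asparaginase, against 293 and 333 in untreated Nalm6. In SUPB15 they were 390 and 335 with asparaginase, against 304 and 274 in untreated cells, and 390 was 97.5% of the limit of 400. In untreated SUPB15 the peak ranked 14 and 11 by p, next to that of DDIT3.

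At the ATF5 start pileups were 247 and 283 in Nalm6 with asparaginase, against 163 and 184 in untreated Nalm6. In SUPB15 they were 169 and 101 with asparaginase, against 83 and 62 in untreated cells. The groups did not overlap in either line, and the asparaginase libraries of SUPB15 differed much from each other. This site was farther from the limit of 400 than the upstream one. A weak peak at +1118 to +1120 bp was listed in SUPB15 asparaginase replicate 2 and in untreated SUPB15 replicate 1, with pileups of 35 and 46. In RefSeq, NUP62 and IL4I1 lie within 5 kb of ATF5, MIEF1 of ATF4, CEBPB-AS1 of CEBPB, PEPD of CEBPG and GARIN4 of ATF3. The 5 kb were counted from either end of the whole gene. A neighbour can thus lie farther than that from a peak near the start, above all at ATF3, which is 55371 bp long. Nearness alone does not tie a peak to 1 gene at these genes either.

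The ATF4 gene itself had the weakest of the 7 sites listed in all 8 libraries. ATF4 is raised mainly through translation, though its gene is also transcribed more under some stresses. Pileups at its start were 43 and 50 in Nalm6 with asparaginase, against 48 and 59 in untreated Nalm6, and 53 and 31 in SUPB15 with asparaginase, against 41 and 29 in untreated SUPB15. The groups overlapped in both lines. Fold enrichments were 2.74 to 5.20, ranks by p 2697 to 24463, and the site was region 2503 of 3812 by mean relative pileup. Its summits moved between -167 and +157 bp (chr22:39916402-39916726), a span of 324 bp, and 68.1% of the 3812 regions had a span no larger. A separate weak peak was listed at -622 bp in Nalm6 asparaginase replicate 2 and at -650 bp in SUPB15 asparaginase replicate 1.

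**Figure D2:**
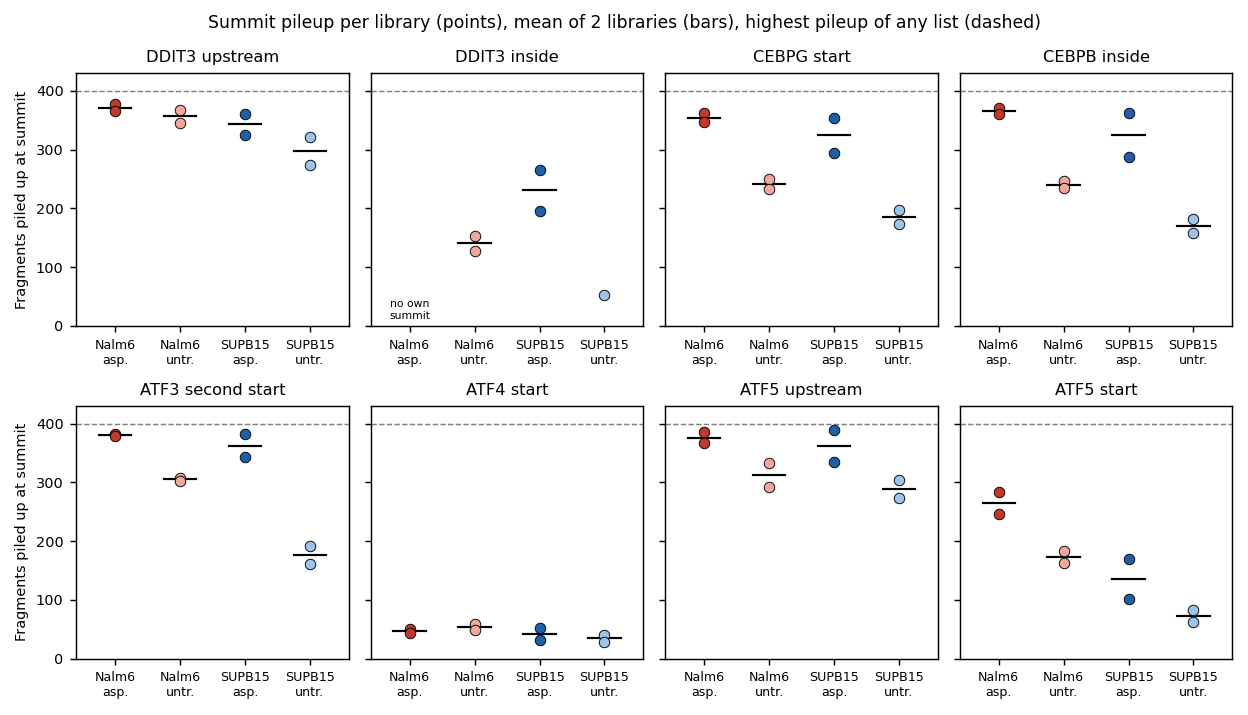
Fragments piled up at the summit in each library (points) with the mean of 2 libraries (bars) for 8 sites, in Nalm6 and SUPB15 with asparaginase (asp.) and untreated (untr.). The dashed line marks 400, the highest pileup of any list. The strong sites of the asparaginase libraries crowd below it, while the ATF4 start stays between 29 and 59.

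The 5 strong sites stood farther apart without treatment than with it. In untreated SUPB15 relative pileups were 74.6 ± 6.10 at the DDIT3 upstream site and 72.6 ± 2.97 at the ATF5 upstream site, which do not differ beyond their spread. CEBPG at 46.7 ± 2.57, ATF3 at its second start at 44.3 ± 3.88 and CEBPB at 42.8 ± 2.87 followed as a group whose neighbours do not differ beyond their spread either (SD, n = 2 each). With asparaginase these 5 sites of SUPB15 lay between 80.0 ± 6.61 at CEBPG and 89.5 ± 2.69 at ATF3, all within 1 narrow band. In untreated Nalm6 DDIT3 came first with 125 ± 11.0, then ATF5 upstream with 109 ± 14.7, ATF3 with 106 ± 6.23, CEBPG with 84.4 ± 7.94 and CEBPB with 84.0 ± 6.45 (SD, n = 2 each). Neighbours in that order overlapped between libraries, except that both ATF3 values, 102 and 111, stood above both CEBPG values. With asparaginase the same 5 sites of Nalm6 lay between 157 ± 1.33 at CEBPG and 168 ± 5.20 at ATF3. Near a limit of 400 fragments, sites must come close to each other, so the bands cannot be read as equal binding.

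**Figure D3:**
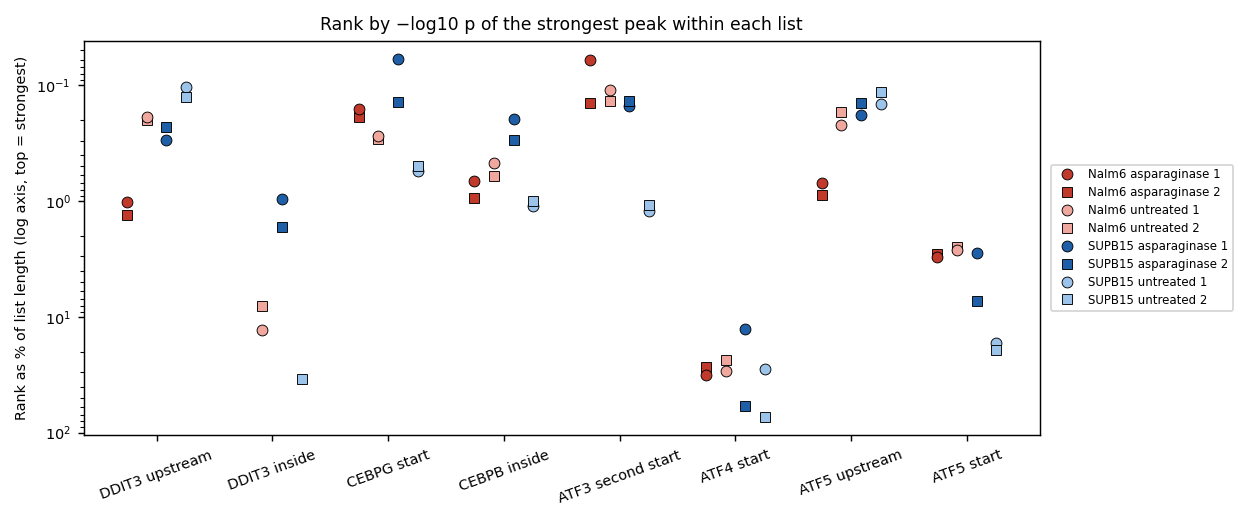
Rank of the strongest peak of each site by -log10 p, as a percentage of the list's length, on a log axis with the strongest peaks at the top. Circles are replicate 1 and squares replicate 2. DDIT3 upstream and ATF5 upstream of untreated SUPB15 lie between 0.104 and 0.146%, and the ATF4 start lies between 12.7 and 73.9%.

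Ranks also depended on the value used. By -log10 p the median rank over the 8 lists was 84 for the DDIT3 upstream site, 69 for ATF5 upstream, 62.5 for the second ATF3 start, 63.5 for CEBPG and 168 for CEBPB. By fold enrichment the same medians were 2215.5 for DDIT3, 1025 for ATF5 upstream, 608 for ATF3, 274.5 for CEBPG and 1539.5 for CEBPB. CEBPG, on the lowest local background of these 5 sites, lost fewest places. Over the 5 sites and 8 lists -log10 p ran from 96.9 to 282 and -log10 q from 91.6 to 275. At the ATF4 start -log10 p ran from 6.80 to 22.6 and -log10 q from 3.38 to 19.4.

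The change with asparaginase was tested with limma on the log2 relative pileup over all regions with a peak in all 4 lists of a line, after subtraction of the median change. In Nalm6, where the median region was higher with asparaginase by 0.37 on the log2 scale, 3 of 9 sites rose beyond that median. These were CEBPB, CEBPG and the ATF5 start. Of all 25213 regions tested 22.7% were called higher, so that 3 of 9 is near the background. None of the 9 was called lower, by the adjusted p or by an unadjusted p under 0.05, against 8.64% of all regions called lower.

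The ATF5 start rose by 0.59 on the log2 scale in Nalm6 (SE 0.16, limma adjusted p = 0.0023), CEBPB by 0.58 (SE 0.16, adjusted p = 0.0020) and CEBPG by 0.53 (SE 0.16, adjusted p = 0.0054). With fold enrichment over local background in place of relative pileup these 3 values turned to -0.02, -0.29 and -0.19. They too are given after subtraction of the median change, which was 0.14 on that scale. Mean fold itself was 5.70 with asparaginase and 5.27 without at the ATF5 start. It was 8.65 and 9.62 at CEBPB, and 13.2 and 13.7 at CEBPG. On the fold scale 0 of 9 sites were called higher, beside 15.2% of all 25213 regions. Against that median ATF5 upstream, at -0.49 (limma adjusted p = 0.013), and DDIT3 upstream, at -0.45 (adjusted p = 0.039), were called lower, as were 4.08% of all regions. Without asparaginase replicate 1 or without asparaginase replicate 2 of Nalm6 no site was called, with adjusted p of 0.223 and 0.243 at the ATF5 start, 0.388 and 0.254 at CEBPB, and 0.428 and 0.311 at CEBPG. The log2 changes were then 0.61 and 0.57 at the ATF5 start, 0.52 and 0.65 at CEBPB, and 0.48 and 0.58 at CEBPG. A lone asparaginase library is then assumed to vary like the untreated ones.

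The other Nalm6 sites did not pass the test. The changes were 0.30 at the second ATF3 start (95% interval -0.02 to 0.61, adjusted p = 0.147), 0.24 at ATF5 upstream (-0.07 to 0.56, adjusted p = 0.251) and 0.36 at the distal DDIT3 site (0.01 to 0.70, adjusted p = 0.110). They were 0.04 at DDIT3 upstream (-0.28 to 0.35, adjusted p = 0.889), -0.22 at ATF4 (-0.62 to 0.18, adjusted p = 0.450) and -0.02 at the first ATF3 start (-0.48 to 0.44, adjusted p = 0.954). A change as large as that of CEBPB was thus outside the interval at ATF4 and the first ATF3 start. It was also outside at DDIT3 upstream and ATF5 upstream, but there the limit of 400 fragments allowed no change so large. Untreated pileups already stood at 346 and 368 at DDIT3 upstream and at 293 and 333 at ATF5 upstream. For DDIT3 upstream and ATF5 upstream the intervals therefore exclude nothing about binding. At the second ATF3 start, with untreated pileups of 302 and 308, the limit allowed no change as large as that of CEBPB either. The missing call there cannot tell whether binding rose.

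Because DDIT3, ATF3, CEBPB, CEBPG and ATF5 upstream stood close to the limit of 400, the fit was repeated with pileups corrected for crowding under that limit, a step added after the data had been seen. In Nalm6, 5 of 9 sites were then called higher, beside 22.9% of all 25213 regions. Their log2 changes were 1.39 at CEBPB, 1.21 at CEBPG, 1.06 at the second ATF3 start, 0.91 at the ATF5 start and 0.87 at ATF5 upstream. The limma adjusted p of these 5 ranged from 2.8e-06 at CEBPB to 0.015 at ATF5 upstream. DDIT3 upstream stayed at 0.21 (adjusted p = 0.644). The correction grows steeply near the limit, where a few fragments decide the value.

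In SUPB15 the median region was higher with asparaginase by 0.62 on the log2 scale. Beyond that median 0 of 7 sites were called higher by limma, against 20.5% of 4765 regions, and at an unadjusted p under 0.05 the second ATF3 start alone was. The DDIT3 upstream site was called lower, 1 of 7, as were 5.96% of all regions. Its relative pileup was higher in both asparaginase libraries, as given above, but by less than at the median region. Its untreated pileups were already 321 and 273, and no list had a pileup above 400. Even 400 fragments in both asparaginase libraries would have given a smaller rise than that of the median region. A change below that median was thus set by the limit, and the call cannot tell whether binding rose less here. The change against that median was -0.43 on the log2 scale (SE 0.13, limma adjusted p = 0.012), and without subtraction of the median it was 0.19 (adjusted p = 0.260). This call was not kept in any fit without 1 of the 4 SUPB15 libraries. Each such fit leaves 1 library in a group, and without an untreated library few or no regions at all were called. The loss alone thus says little about this site. The log2 changes at DDIT3 upstream in these fits were -0.33 and -0.54 without asparaginase replicate 1 and 2, and -0.19 and -0.45 without untreated replicate 1 and 2. The call was also lost with the correction for crowding, at -0.16 (limma adjusted p = 0.766). It was kept with a pseudocount of 5, with a reciprocal overlap of 50%, with the replicate block, with fold enrichment and with only peaks of -log10 q of at least 10. These settings use pileups under the same limit.

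The remaining SUPB15 changes against the median region were 0.40 at the second ATF3 start (95% interval 0.07 to 0.72, adjusted p = 0.056), 0.28 at CEBPB (-0.06 to 0.63, adjusted p = 0.198), 0.16 at CEBPG (-0.18 to 0.49, adjusted p = 0.453) and 0.21 at the ATF5 start (-0.44 to 0.86, adjusted p = 0.606). They were -0.32 at ATF5 upstream (-0.57 to -0.06, adjusted p = 0.052) and -0.42 at ATF4 (-1.05 to 0.22, adjusted p = 0.303). At ATF5 upstream untreated pileups were already 304 and 274. Under the limit of 400 this site could not rise as far as the median region either. Its lower calls on relative pileup, given below, thus cannot tell whether binding rose less there. After the correction for crowding the second ATF3 start, at 1.39 (limma adjusted p = 0.015), was called higher, 1 of 7, beside 20.1% of all regions. ATF5 upstream changed sign to 0.32 (adjusted p = 0.546). It was called lower, beside the DDIT3 upstream site, with a reciprocal overlap of 50%, at -0.34 (limma adjusted p = 0.030), and with the replicate block, at -0.32 (adjusted p = 9.48e-06). With fold enrichment in place of relative pileup, again against the median region, 3 of 7 SUPB15 sites were called lower, as were 11.5% of all regions. These were DDIT3 upstream at -0.83 (limma adjusted p = 0.0020), ATF5 upstream at -0.67 (adjusted p = 0.0069) and ATF4 at -0.49 (adjusted p = 0.032). With only peaks of -log10 q of at least 10, DDIT3 upstream, at -0.91 (limma adjusted p = 1.73e-12), and ATF5 upstream, at -0.79 (adjusted p = 6.03e-10), were called lower, as were 31.3% of all 1642 regions left. The subtracted median was then 1.09, beside 0.62, at unchanged pileups of these sites.

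Without subtraction of the median, 7 of 9 sites were called higher in Nalm6 and 5 of 7 in SUPB15, beside 38.7% and 49.0% of all regions. Calls over all regions were then 9762 higher and 100 lower in Nalm6, beside 5717 and 2179 with subtraction. In SUPB15 they were 2334 higher and 4 lower, beside 976 and 284. A shift of the median region can be a gain in binding at most sites or a difference in how well the precipitation worked, which cannot be told apart here.

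**Figure D4:**
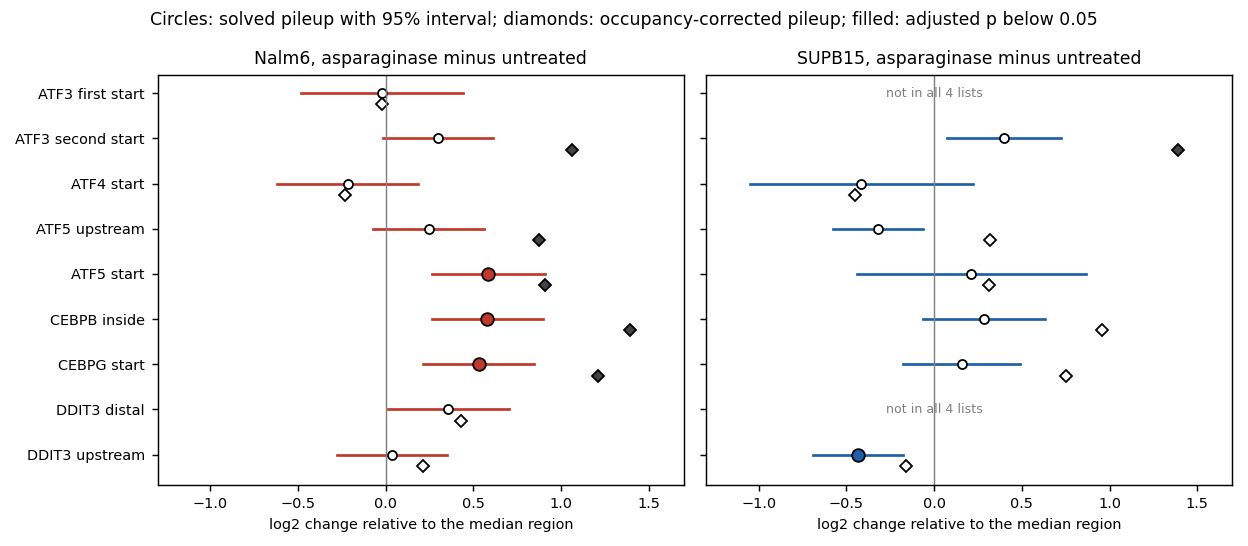
Change with asparaginase at each site, as log2 asparaginase minus untreated relative to the median region of the line. Circles with 95% intervals are relative pileups and diamonds are pileups corrected for crowding under the limit of 400, and filled symbols passed limma at an adjusted p below 0.05. In Nalm6 3 circles and 5 diamonds are filled. With fold enrichment over local background, again relative to the median region, the 3 filled circles turn to values below 0, and none is called higher.

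The responses of the lines were compared at the 7 sites listed in all 8 libraries, as SUPB15 minus Nalm6. None of the 7 differed by limma's interaction test, where 0.498% of 3812 regions had a larger response in SUPB15 and 4.93% a larger one in Nalm6. At an unadjusted p under 0.05, 1 site did, ATF5 upstream, at -0.44 on the log2 scale (95% interval -0.80 to -0.08, adjusted p = 0.180). The differences ran from that value to 0.23 at the second ATF3 start (-0.18 to 0.63, adjusted p = 0.751). The intervals, such as -0.68 to 0.19 at CEBPG and -0.61 to 0.27 at CEBPB, leave room for differences in either direction.

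Regions whose profile over the 8 libraries was most like that of each site were sought among the 3812, by the root mean square difference in log2 relative pileup after removal of each region's own mean. CEBPB and CEBPG were among each other's 3 nearest regions, at 0.0668 on the log2 scale. The region nearest to DDIT3 upstream was chr11:46264183-46265383, at 0.0257, with a mean relative pileup of 111 beside 107 for DDIT3. The nearest to the second ATF3 start was chr9:2620733-2622523, at 0.0489. The nearest to ATF5 upstream was chr2:74425518-74426977, at 0.0746. These likenesses rest on 8 libraries, and they share depth and the limit of 400 among strong sites. The regions carry no gene names, since no annotation of hg19 was used here.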

How the data were processed

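ATF4 ChIP-seq peaks were deposited as 1 list per library, with 2 libraries in each of 4 groups, taken from the sample titles. The submitters' processing notes name BWA, MACS2, DiffBind and the hg19 build, and the sources used here give no versions or options. Each peak has a fold enrichment, which is a ratio to local background, a −log10 p and a −log10 q, all deposited by the authors. The summit offset column, also deposited, gave the summit position.

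The fold was taken as (pileup + 1) / (background + 1) and p as a Poisson tail, and both were solved together for pileup and local background. For 100% of peaks a solution lay within 0.001 of the listed −log10 p. A list's lowest background was its genome background and gave relative depth. The lists give no read totals. Peaks sharing at least 1 bp were merged into regions. Responses were fitted with limma 3.58.1 (trend, Benjamini-Hochberg adjustment at 0.05 over all regions of the fit) on log2 of the pileup plus a pseudocount of 1, over genome background, centred on the median change. The lines were fitted separately, and their difference as an interaction over all 8 libraries. Start sites with a peak were compared by an exact permutation test. The steps were tested on simulated data. Motifs were searched with Python 3.11.15 in RefSeq promoters of GRCh38.p14.

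All peaks within 5 kb of the 7 starts are described. The members, lists and tests were chosen with earlier results of these data known. The division of a gene's peaks into sites, and the correction for crowding, −C ln(1 − pileup / C) with C = 400, were chosen after the values had been seen. Alternatives were fold enrichment, other windows, q thresholds, pseudocounts and overlaps, equal list lengths, no centring, left-out replicates and a replicate block. A count over other bZIP genes was not made, because no annotation of hg19 was used here.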

Additional observations from a re-analysis of the deposited data

How the results depend on the processing

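With fold enrichment over local background in place of relative pileup, again centred on the median change, 0 of 9 sites were called higher in Nalm6, beside 3. Over all Nalm6 regions 15.2% were then called higher, beside 22.7%. The subtracted median was 0.14 in Nalm6 and 0.43 in SUPB15 on the log2 scale. The log2 changes in Nalm6 then reversed to -0.23 at the second ATF3 start, 0.011 at ATF4, -0.025 at the ATF5 start, -0.49 at ATF5 upstream, -0.29 at CEBPB, -0.19 at CEBPG, -0.11 at distal DDIT3 and -0.45 at DDIT3 upstream. In SUPB15 they reversed to -0.13 at the second ATF3 start, -0.11 at the ATF5 start, -0.28 at CEBPB and -0.28 at CEBPG. Before that subtraction mean fold there was higher with asparaginase, by ratios of 1.24, 1.25, 1.11 and 1.11 in the same order. The difference between the lines at CEBPB turned to 0.048. With only peaks of -log10 q of at least 10, 5 Nalm6 sites were called, and SUPB15 values turned to -0.075 at the second ATF3 start, -0.26 at the ATF5 start, -0.19 at CEBPB and -0.32 at CEBPG. Without centring 7 sites were called in Nalm6 and 5 in SUPB15. Values then turned to 0.34 at the first ATF3 start and 0.15 at ATF4 in Nalm6, to 0.20 at ATF4, 0.30 at ATF5 upstream and 0.19 at DDIT3 upstream in SUPB15, and to 0.055 for the line difference at ATF4. The correction for crowding gave 5 sites called higher in Nalm6 and 1 in SUPB15, beside 22.9% and 20.1% of all regions, and 0.32 at ATF5 upstream in SUPB15. With regions of at most 50% of the highest pileup, 0 were called in Nalm6, since the called sites drop out. A reciprocal overlap of 50% gave 0.0022 at the first ATF3 start in Nalm6, and no value at ATF4 in either line or at CEBPB and the ATF5 start in SUPB15. A pseudocount of 5 gave 1 site called higher in SUPB15, beside 0, and 23.5% of all SUPB15 regions were then called higher.

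Leaving out 1 library at a time, the number called in Nalm6 ran from 0 to 5 of 9. The log2 changes ran from -0.18 to 0.081 at the first ATF3 start and from -0.021 to 0.10 at DDIT3 upstream in Nalm6, and from -0.25 to 0.092 for the line difference at ATF4. The number of start sites with a peak differed by 0.25 with a window of 10 kb (exact permutation test, p = 1) and by -0.75 with equally long lists (exact p = 0.167), beside 0.5, and it stayed at 0.5 with 1 library left out. Over all Nalm6 regions, fold enrichment called 3823 higher and 1028 lower, beside 5717 and 2179, and over all SUPB15 regions 954 and 546, beside 976 and 284. With only peaks of -log10 q of at least 10, 55 SUPB15 regions were called higher and 514 lower, of 1642. Without untreated replicate 1 or 2 of SUPB15, 50 and 0 SUPB15 regions were called higher at all. Apart from fewer sites or samples where a setting removes them, and another median being subtracted, the cause of these changes was not tested.

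Same-numbered libraries correlated by 0.033 in Nalm6 and 0.086 in SUPB15 in their deviations from the group means, so the numbers were not taken to pair them. With the replicate block, 4 sites were called higher in Nalm6 and 2 in SUPB15, beside 3 and 0, over all regions 6396 and 1634 were called higher and 3604 and 707 lower, beside 2179 and 284 lower, ATF5 upstream was newly called lower in SUPB15, and the start-site difference was 0.5 (exact p = 0.5). At the weak sites a missing peak is no measured 0, and at the strong ones pileups reached up to 97.5% of the limit of 400 fragments. How far depth shaped the weak sites was not tested. Of the changes per site and setting, 67 kept their direction and side of the threshold in Nalm6, 45 in SUPB15 and 79 for the line difference, and 15, 12 and 5 changed direction. Of the others, all with the same direction, 12 passed the test newly and 6 no longer did in Nalm6, and 13 and 5 in SUPB15.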
